A study of Homo sapiens with 4 samples.

Results

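Nitric oxide acts on its target cells largely through the second messenger cyclic GMP (cGMP), and 9 genes that make, sense or degrade cGMP were followed in human enteric ganglioids. They were the subunits of soluble guanylate cyclase (GUCY1A1, GUCY1A2 and GUCY1B1), the cGMP-dependent protein kinases (PRKG1 and PRKG2) and 4 phosphodiesterases (PDE5A, PDE1A, PDE9A and PDE3A). They were taken by symbol, with no filter on a measured value, from the 36601 genes of the count tables, and all 9 were present. Earlier results of these data were known when they were chosen. Enteric ganglioids are floating cultures of enteric neurons, their progenitors and other cells, grown here through enteric neural crest from H9, an established human embryonic stem cell line. Single-nucleus RNA sequencing gave counts of unique molecular identifiers (UMIs, 1 per captured RNA molecule) in 4 samples. The control group held 2 samples, and the other 2 were given PP121, an inhibitor of receptor tyrosine kinases, at 2 µM from day 15 to day 20. What the control cultures received in its place was not given. Each group held differentiation replicates 1 and 2. The deposited annotation dated both samples of replicate 1 to day 42 and both of replicate 2 to day 38, so day and differentiation cannot be told apart. All 4 samples came from 1 line grown in suspension, so differences between people were not sampled.

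In the textbook pathway, nitric oxide binds the haem of soluble guanylate cyclase, a dimer of 1 alpha subunit (GUCY1A1 or GUCY1A2) with the beta subunit GUCY1B1, and the enzyme then makes cGMP. cGMP switches on its kinases, and phosphodiesterases end the signal. In the gut, nitrergic neurons (NO neurons) release nitric oxide, and smooth muscle relaxes through cGMP.

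The 4 libraries held 2912 to 4587 annotated nuclei with a median of 6289 to 7071 UMIs, and 0 to 8 barcodes were shared between any pair of them. Levels are counts per 1000000 UMIs (CPM) of all nuclei of a class in a sample, and are always listed in the order control replicate 1, control replicate 2, PP121 replicate 1, PP121 replicate 2. They are not corrected for gene length, so no gene is compared with another by level. The classes are those of the deposited annotation. Enteric neuron markers summed to 6334 to 9082 CPM in the enteric neurons, and mesenchymal markers to 2769 to 3651 in the mesenchymal nuclei against 96.3 to 177 in neurons and progenitors. Progenitor markers summed to 1752 to 2263 in progenitor 2, but to 552 to 825 in progenitor 1, which overlapped with the 555 to 1155 of the mesenchymal and the 705 to 847 of the epithelial nuclei and lay below the 1822 to 2356 of the Unknown class. Smooth muscle markers summed to 25.2, 62.2, 53.8 and 45.5 in the mesenchymal nuclei, 31.3 to 38.6 in the neurons and 39.6 to 53.3 in the progenitors, and were not tested. The epithelial label rested on 2 to 15 marker UMIs a sample. Of the 2301, 1250, 2030 and 976 enteric neurons, the deposited subtypes named 16, 16, 143 and 61 Non-Neuronal, more of them in both PP121 samples. They stay in the enteric neuron class as deposited, and the neuron results were also computed without them. The classes were themselves made by clustering these nuclei, so tests between them overstate what independent nuclei would give.

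Between the classes, 2 to 9 of the 9 genes passed by comparison, in patterns that did not run together. The count between the 2 progenitor classes was near the share of all genes. Against the 2 progenitor classes summed, 5 genes were higher and 2 lower in enteric neurons (7 of 9 at an edgeR adjusted p under 0.05, where 49.2% of all 20499 genes tested passed). The 7 kept call and direction without the Non-Neuronal nuclei. In mesenchymal nuclei 7 were higher and 2 lower than in progenitors (9 of 9, against 21% of 18290 genes). In progenitor 2, 6 of 9 were higher than in progenitor 1 and none was lower (57.3% of 17717 genes passed). In NO neurons 2 of 9 were higher than in the other neurons of the same sample (12.3% of 17714 genes passed). The median log2 fold change of the 9 genes was 0.37, 2.10, 0.93 and 0.17 in these 4 comparisons, beside medians within 0.05 of 0 over all genes tested. Each comparison was fitted on summed counts with the sample as a block, tested 2-sided by edgeR's quasi-likelihood test and adjusted over all genes by the Benjamini-Hochberg method. Log2 fold changes are given with their standard error (SE).

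**Figure D1:**
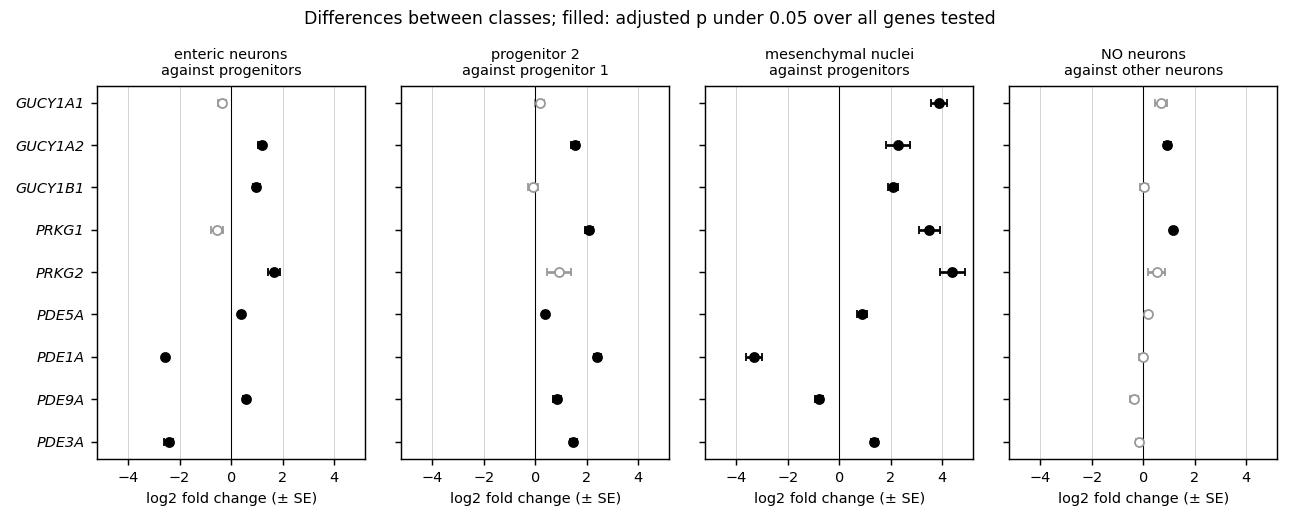
Log2 fold change (x axis, with SE as bars) of each of the 9 genes (y axis) in 4 comparisons between deposited classes, from the fits over 4 samples. Filled points passed an adjusted p of 0.05 over all genes tested; PDE1A sits at -2.59 in neurons against progenitors and at 2.42 in progenitor 2 against progenitor 1, and only the mesenchymal panel has all 9 points filled.

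The 3 subunits of the cyclase were not distributed alike over the classes. GUCY1A1 and GUCY1B1 lie one behind the other on the same strand of chromosome 4 (chr4:155666711-155732349 and chr4:155758992-155807591, GRCh38, 26.6 kb apart), and GUCY1A2 lies on chromosome 11 (chr11:106674012-107018524, minus strand). The RefSeq promoters of the 3 subunits, from 250 bases before to 50 after the start in GRCh38.p14, are shown because neighbours on 1 strand, whose products form 1 enzyme, had unlike class patterns. Capitals mark the GC box (GGGCGG, searched on both strands), which 45.0% of the 35116 promoters in the table held.
GUCY1A1 (chr4:155666598-155666897, plus strand): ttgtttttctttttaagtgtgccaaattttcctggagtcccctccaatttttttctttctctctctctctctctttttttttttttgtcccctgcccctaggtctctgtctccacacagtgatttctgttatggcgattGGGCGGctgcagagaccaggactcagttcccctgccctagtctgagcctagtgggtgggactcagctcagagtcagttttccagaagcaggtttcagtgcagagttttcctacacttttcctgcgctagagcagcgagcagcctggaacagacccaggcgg
GUCY1B1 (chr4:155758771-155759070, plus strand): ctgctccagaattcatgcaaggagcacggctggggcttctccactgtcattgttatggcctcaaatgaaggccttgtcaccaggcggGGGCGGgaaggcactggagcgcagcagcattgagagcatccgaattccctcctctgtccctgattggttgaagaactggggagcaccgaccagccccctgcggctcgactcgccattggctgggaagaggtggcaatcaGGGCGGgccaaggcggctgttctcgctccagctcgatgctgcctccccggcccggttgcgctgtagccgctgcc
GUCY1A2 (chr11:107018427-107018726, minus strand): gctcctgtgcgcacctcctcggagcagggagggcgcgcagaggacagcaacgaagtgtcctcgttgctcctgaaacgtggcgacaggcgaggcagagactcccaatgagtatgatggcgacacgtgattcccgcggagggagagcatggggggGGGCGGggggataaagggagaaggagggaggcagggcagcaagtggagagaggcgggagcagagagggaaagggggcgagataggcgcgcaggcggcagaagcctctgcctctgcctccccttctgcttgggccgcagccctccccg
The GUCY1B1 window held 2 GC boxes in 63% G and C, the GUCY1A2 window 1 in 66.7%, and the GUCY1A1 window 1 in 49.7%. GUCY1A1 has another RefSeq start, whose window (chr4:155667412-155667711) held 0 GC boxes. None of the 3 held a TATAAA, which 11.5% of all promoters had. No promoter of the 8 members in the table (18 starts) held a CArG box, the motif of serum response factor, found in 1.29% of all promoters.

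GUCY1A1, the alpha-1 subunit, was high in the mesenchymal nuclei and low elsewhere. Its level in mesenchymal nuclei was 165, 179, 135 and 141 CPM, and in enteric neurons 5.75, 8.84, 7.84 and 10.7. The 2 progenitor classes summed had 5.58, 11.9, 10.5 and 19.4. All 4 mesenchymal values stood above every value of the neurons and progenitors, which overlapped with each other. Mesenchymal nuclei exceeded progenitors by 3.87 on the log2 scale (SE 0.30, edgeR adjusted p = 1.68e-05). Neurons against progenitors gave -0.37 (SE 0.16, edgeR adjusted p = 0.0764), which became -0.50 and passed (adjusted p = 0.0253) without control replicate 1. Thinned to 2000 UMIs a nucleus, 20.0%, 19.0%, 21.2% and 16.7% of mesenchymal nuclei had a GUCY1A1 UMI, beside 1.00% to 1.44% of neurons. The median depths before thinning were close, 7227 to 8401 UMIs in mesenchymal nuclei and 7210 to 8102 in neurons.

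GUCY1A2, the alpha-2 subunit, was higher in neurons than in either progenitor class. It stood at 56.0, 32.7, 63.6 and 32.9 CPM in enteric neurons, at 10.9, 6.52, 12.4 and 7.88 in progenitor 1 and at 25.6, 19.6, 36.7 and 31.2 in progenitor 2. In every sample the order was neurons, progenitor 2, progenitor 1, and the ranges of the 2 progenitor classes did not overlap. Neurons exceeded the summed progenitors by 1.18 (SE 0.15, edgeR adjusted p = 6.67e-05), and progenitor 2 exceeded progenitor 1 by 1.55 (SE 0.16, edgeR adjusted p = 2.56e-06). Mesenchymal nuclei had 207, 109, 124 and 25.3 and were 2.30 above progenitors (SE 0.46, edgeR adjusted p = 0.00619). The PP121 replicate 2 value was close to that of its progenitors, with a ratio of 1.07 where the other samples gave 4.92 to 9.83.

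GUCY1B1, the beta subunit that both alpha subunits need, was highest in the mesenchymal and Unknown classes. The level in neurons was 24.9, 20.7, 18.8 and 12.9, and in progenitors 11.2, 10.0, 10.7 and 8.72, with no overlap (log2 fold change 0.97, SE 0.13, edgeR adjusted p = 9.90e-05). Mesenchymal nuclei had 36.4, 44.8, 47.1 and 34.0 and the Unknown class 60.5, 52.3, 61.3 and 33.0. Progenitor 2 against progenitor 1 gave a difference smaller than its error (-0.09, SE 0.20, edgeR adjusted p = 0.734). At 4000 UMIs a nucleus, 9.20%, 7.69%, 5.83% and 5.21% of neurons with an alpha UMI had a GUCY1B1 UMI. Among neurons without an alpha UMI the shares were 8.31%, 7.47%, 6.37% and 4.34%. In mesenchymal nuclei they were 22.2%, 16.7%, 20% and 14.2% with and 5.26%, 10.8%, 6.25% and 9.70% without, from only 37 and 31 nuclei in control and PP121 replicate 1. In each progenitor class the direction differed between samples. These shares were not tested.

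**Figure D2:**
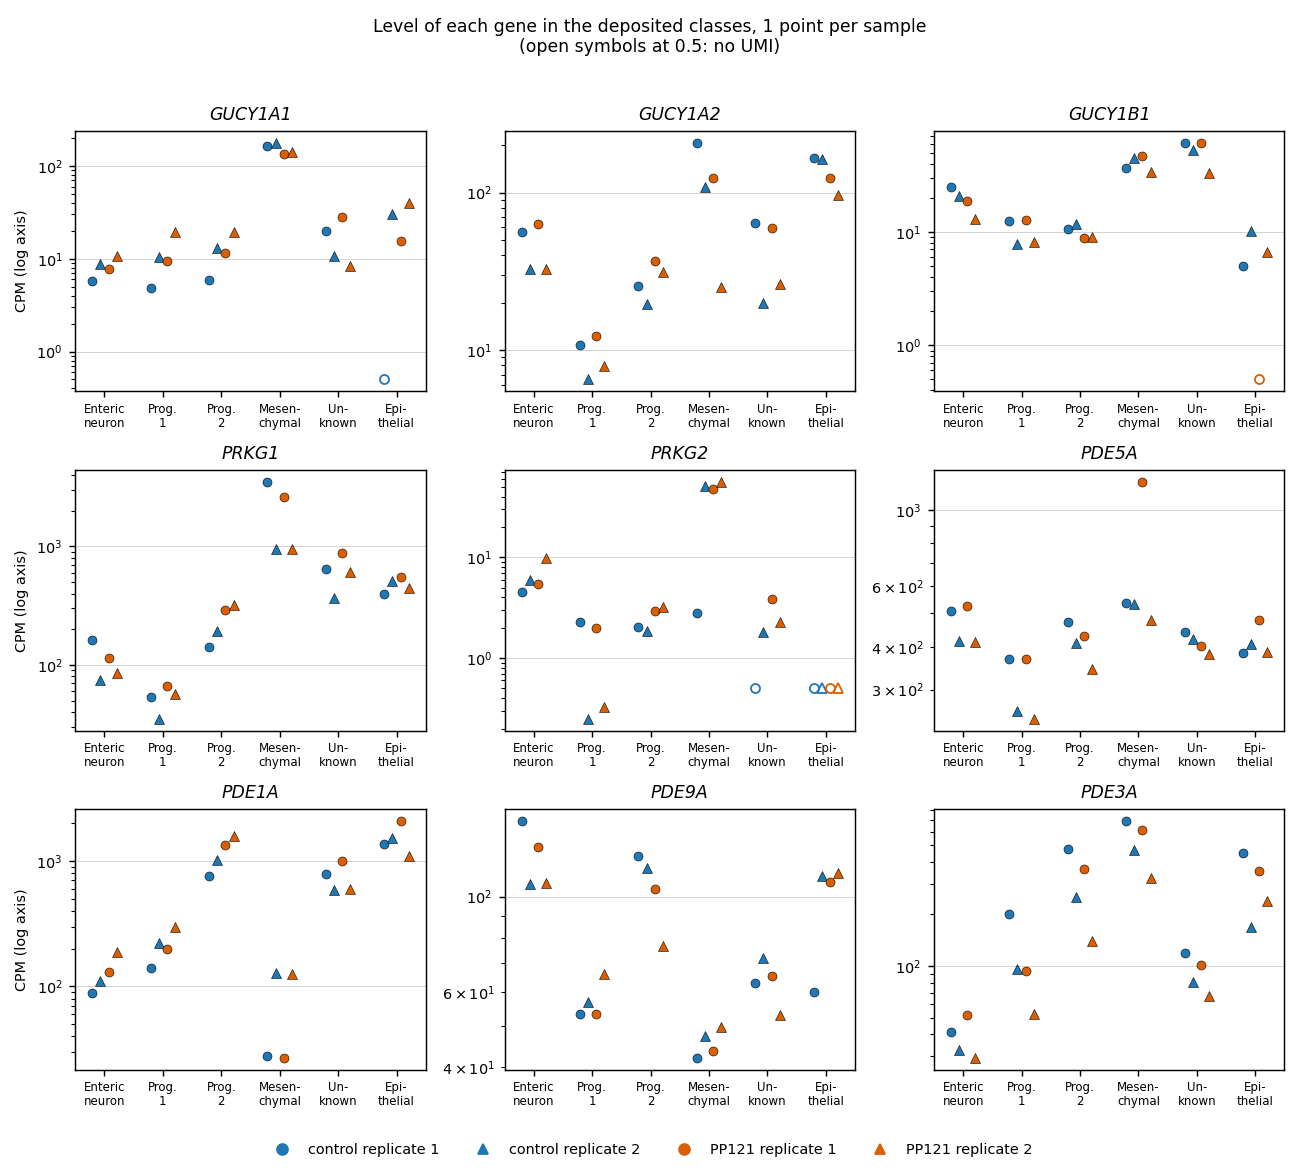
Level of each gene in CPM (y axis, log scale, 1 panel per gene) in the 6 deposited classes (x axis), with 1 point per sample (colour for treatment, shape for replicate) and open symbols where no UMI was counted. GUCY1A1, PRKG1 and PRKG2 peak in mesenchymal nuclei, PDE1A in progenitor 2, Unknown and epithelial nuclei, and PDE5A stays between 247 and 535 outside 1 mesenchymal value of 1208.

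PRKG1, the kinase that relaxes smooth muscle, was highest in the mesenchymal nuclei. It spans 1307460 bases (chr10:50990891-52298350, plus strand), and 678 UMIs of CSTF2T and 700 of PRKG1-AS1, both on the other strand inside it, stand beside its own 27106. Whether counting used strand was not given. Mesenchymal nuclei had 3518, 949, 2621 and 952 CPM, progenitor 2 had 142, 194, 292 and 318, progenitor 1 had 53.3, 35.1, 65.8 and 56.8, and neurons had 164, 74.5, 115 and 84.6. Every mesenchymal value exceeded every value of the other 3 classes, and the 2 progenitor classes did not overlap, while neurons stood above progenitor 1 and overlapped with progenitor 2. The fold changes were 3.50 for mesenchymal nuclei against progenitors (SE 0.42, edgeR adjusted p = 0.000248) and 2.09 for progenitor 2 against progenitor 1 (SE 0.15, edgeR adjusted p = 1.21e-07). Neurons against progenitors gave -0.54 (SE 0.24, edgeR adjusted p = 0.0803), with a ratio of 1.42 in control replicate 1 and of 0.36 to 0.62 in the other 3 samples, and passed without control replicate 1 (-0.90, adjusted p = 0.000871).

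The mesenchymal values of replicate 1 rest on few nuclei. Only 40 and 33 mesenchymal nuclei were annotated in control and PP121 replicate 1, against 408 and 422 in replicate 2. The 10 nuclei with the most PRKG1 UMIs held 75.2% and 82.5% of the class's PRKG1 UMIs in replicate 1, and 22.2% and 20.7% in replicate 2. For GUCY1A1 these shares were 84.7% and 97.5% against 30.9% and 28.9%.

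PRKG2, the membrane-bound kinase of the family, was sparse, with 831 UMIs in all 4 annotated libraries. It reached 50.6, 47.1 and 56.2 CPM in the mesenchymal nuclei of control replicate 2 and the PP121 samples, but 2.80 (1 UMI) in control replicate 1. Neurons had 4.49, 5.95, 5.47 and 9.94, and progenitors 2.09, 1.17, 2.47 and 2.31, with no overlap (log2 fold change 1.66, SE 0.24, edgeR adjusted p = 0.000171). The mesenchymal excess over progenitors was 4.40 (SE 0.47, edgeR adjusted p = 0.00013). Another gene, AC139722.1, lies antisense within PRKG2 (chr4:81087370-81215117, minus strand) and had 306 UMIs.

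PDE5A, the cGMP-specific enzyme that sildenafil blocks, was found at a broadly similar level in every class (chr4:119494395-119628991, minus strand). Neurons had 506, 415, 524 and 414 CPM, progenitor 2 had 471, 410, 429 and 345, and progenitor 1 had 367, 259, 367 and 247. Neurons were above the summed progenitors in each of the 4 samples by a ratio of 1.15 to 1.32, while the ranges over samples overlapped (log2 fold change 0.37, SE 0.08, edgeR adjusted p = 0.00187). Progenitor 2 exceeded progenitor 1 by 0.40 (SE 0.10, edgeR adjusted p = 0.00388). At 2000 UMIs a nucleus a PDE5A UMI was seen in 29.2% to 38.7% of progenitor 1 nuclei and in 48.8% to 58.3% of neurons. No class lacked it, so none shows what free RNA alone would give. In mesenchymal nuclei 3 samples had 478 to 535 and PP121 replicate 1 had 1208, where 10 of 33 nuclei held 73.3% of the UMIs. Without that sample the mesenchymal excess over progenitors went from 0.87 (SE 0.20, edgeR adjusted p = 0.0106) to 0.62 (adjusted p = 0.0172).

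PDE1A, a calcium- and calmodulin-activated enzyme that degrades both cyclic nucleotides, was higher in progenitor 2 than in progenitor 1, neurons and mesenchymal nuclei (chr2:182140036-182523192, minus strand). Progenitor 2 had 761, 1025, 1334 and 1589 CPM, progenitor 1 had 139, 222, 200 and 299, and neurons had 89.1, 110, 130 and 189. The lowest progenitor 2 value was above the highest of either other class. Progenitor 2 exceeded progenitor 1 by 2.42 (SE 0.13, edgeR adjusted p = 1.86e-08), and neurons were lower than the summed progenitors (-2.59, SE 0.07, edgeR adjusted p = 1.17e-08), with a ratio of 0.16 in all 4 samples. Without the Non-Neuronal nuclei that difference was -2.81 (SE 0.09, edgeR adjusted p = 1.34e-08). Mesenchymal nuclei had 28.0, 129, 26.9 and 126, so this was 1 of 2 members lower there than in progenitors (-3.31, SE 0.32, edgeR adjusted p = 7.11e-05). Of progenitor 2 nuclei thinned to 2000 UMIs, 61.4%, 71.3%, 76.5% and 81.3% had a PDE1A UMI, beside 17.4%, 21.4%, 19.2% and 31.1% of progenitor 1 nuclei. The 95% Clopper-Pearson intervals of the 2 classes lay apart in every sample (58.5% to 64.2% against 14.4% to 20.7% in control replicate 1). Such intervals cover counting error only. The Unknown class, with 589 to 996, and the epithelial class, with 1091 to 2089, also had high PDE1A.

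PDE3A, an enzyme that degrades cyclic AMP and is inhibited by cGMP, shared the low pooled neuronal level of PDE1A but was high in mesenchymal nuclei (chr12:20369245-20684381, plus strand). Mesenchymal nuclei had 692, 469, 612 and 325 CPM and progenitor 2 had 479, 252, 365 and 139. Progenitor 1 had 199, 96.3, 93.6 and 52.5 and neurons 41.4, 32.6, 52.0 and 29.2. In each sample the order was mesenchymal, progenitor 2, progenitor 1, neurons, although neighbouring ranges overlapped except between neurons and progenitor 1. The pooled neurons hold a higher deposited subtype, EN 6 of the controls and EN F of the PP121 samples. There PDE3A was 193, 118, 236 and 64.7 CPM. PDE1A was 219, 257, 222 and 357 there, above progenitor 1 in every sample. These were the highest subtypes for both genes, were picked after their values were seen and were not tested. Neurons were lower than progenitors (-2.43, SE 0.18, edgeR adjusted p = 1.22e-06), progenitor 2 was 1.48 above progenitor 1 (SE 0.13, edgeR adjusted p = 8.04e-07), and mesenchymal nuclei were 1.36 above progenitors (SE 0.15, edgeR adjusted p = 0.00013).

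PDE9A, a cGMP-specific enzyme of high affinity, was higher in neurons and progenitor 2 than in progenitor 1 and mesenchymal nuclei (chr21:42653636-42775509, plus strand). Its level was 150, 107, 131 and 108 CPM in neurons, 125, 116, 104 and 76.6 in progenitor 2, 53.3, 56.7, 53.1 and 66.0 in progenitor 1, and 42, 47.3, 43.7 and 49.5 in mesenchymal nuclei. Neurons and progenitor 2 overlapped with each other and both stood above progenitor 1 and mesenchymal nuclei. Epithelial nuclei had 59.8, 112, 108 and 114. Neurons exceeded the summed progenitors by 0.57 (SE 0.10, edgeR adjusted p = 0.000604) and progenitor 2 exceeded progenitor 1 by 0.84 (SE 0.15, edgeR adjusted p = 0.000278). Mesenchymal nuclei were lower than progenitors (-0.78, SE 0.17, edgeR adjusted p = 0.00972), a call lost without control replicate 2 (-0.74, adjusted p = 0.0858). Among neurons by their deposited transmitter identity, which can overlap, cholinergic neurons had 226, 183, 214 and 197 and catecholaminergic neurons 134, 96.1, 108 and 95.2, with no overlap. This pair was picked after its values were seen and was not tested. Antisense AP001627.1 inside PDE9A had 851 UMIs beside the 12033 of PDE9A.

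The next comparison asked whether neurons labelled as NO neurons carry other levels of the enzymes that respond to nitric oxide. NO neurons were 449, 230, 358 and 91 of the enteric neurons, set against 1836, 1004, 1529 and 824 others. The deposited identity came from imputed NOS1 (the neuronal nitric oxide synthase) and a NOS1-centred gene score that holds none of the 9 genes. The study imputed by a low-rank approximation of the expression values, so the label may not be independent of the 9 genes. A measured NOS1 UMI was held by 52, 30, 42 and 20 of the enteric neurons, fewer than carry the label. Measured NOS1 was 17.8, 25.9, 31.1 and 82.4 CPM in NO neurons and 0.14 to 0.99 in the others.

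GUCY1A2 was higher in NO neurons, with 69.7, 59.9, 104 and 68.5 CPM against 53.1, 26.7, 54.5 and 28.5. The 2 groups did not overlap, and the difference was 0.94 on the log2 scale (SE 0.14, edgeR adjusted p = 0.000654). PRKG1 was higher in NO neurons in each of the 4 samples, with 288, 128, 224 and 139 against 134, 62.5, 88.1 and 74.1. Its ratio was 1.88 to 2.54 within samples, although the ranges overlapped across samples, and the difference was 1.17 on the log2 scale (SE 0.10, edgeR adjusted p = 8.48e-06). Thinned to 2000 UMIs, a PRKG1 UMI was found in 29.7%, 15.2%, 25.1% and 13.3% of NO neurons and 15.5%, 7.68%, 11.2% and 8.51% of the others. For GUCY1A2 the shares were 11.6%, 8.70%, 15.1% and 12.2% against 8.10%, 4.99%, 8.80% and 4.01%. Progenitor 1, the class with the lowest level of both genes, had a PRKG1 UMI in 4.15% to 9.88% of nuclei and a GUCY1A2 UMI in 1.16% to 2.04%. The median depth was 7180 to 8535 UMIs in NO neurons, 6725 to 7756 in the others and 4854 to 5954 in progenitor 1.

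No other member passed between NO and other neurons. The nearest was GUCY1A1, with 8.88, 15.7, 6.47 and 16.3 CPM against 5.04, 7.40, 6.83 and 10.3 (0.69, SE 0.22, edgeR adjusted p = 0.0628), which passed without PP121 replicate 1 (0.90, adjusted p = 0.0464). PDE9A had 91.7, 88.9, 92.8 and 131 in NO neurons against 165, 111, 140 and 106 in the others. It was lower in 3 samples and higher in PP121 replicate 2 (-0.35, SE 0.15, edgeR adjusted p = 0.149), passed without that sample (-0.58, adjusted p = 0.00101) and turned to 0.23 (adjusted p = 0.950) with neurons split by NOS1 UMIs. GUCY1B1 gave 23.4, 18.8, 20.1 and 15.1 against 25.3, 21.4, 18.7 and 12.6.

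The definition of an NO neuron moved these results. With neurons split by whether they held at least 1 NOS1 UMI, PRKG1 still passed (0.76, SE 0.17, edgeR adjusted p = 0.0363), while GUCY1A2 gave 0.44 (adjusted p = 0.867), in a split where 70 of 17085 genes passed. Without the sample as a block GUCY1A2 gave 0.97 (adjusted p = 0.0678).

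The 2 genes also followed the deposited neuron subtypes, which were named separately for control (EN 1 to EN 8) and for PP121 samples (EN A to EN I). Both were highest in EN 5 of the controls and EN E of the PP121 samples, where 55.7%, 43.4%, 71.7% and 65.5% of nuclei were NO neurons. The levels did not follow the NO share throughout. EN 8 held 73.7% and 28.0% NO neurons in control replicates 1 and 2. Its PRKG1 was 112 and 44.6 CPM and its GUCY1A2 76.7 and 53.9. EN 5 and EN E were singled out after their values were seen, so what follows is a description. Inside EN 5 and EN E, GUCY1A2 was 92.8, 78.8, 103 and 104 CPM in NO neurons against 86.3, 86.6, 145 and 81.7 in the others, so it was not higher in all samples. Outside them it was 55.0, 57.6, 105 and 58.3 against 50.2, 24.4, 51.2 and 27.9, higher in all 4. PRKG1 was higher in NO neurons in all 4 samples inside EN 5 and EN E, and outside them in every sample except PP121 replicate 2. Inside EN 5 and EN E it was 533, 199, 373 and 462 in NO neurons against 255, 176, 162 and 105 in the others, and outside them 131, 119, 129 and 46.3 against 124, 58.0, 85.4 and 73.7. In PP121 replicate 2, EN E held only 19 NO and 10 other neurons.

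**Figure D3:**
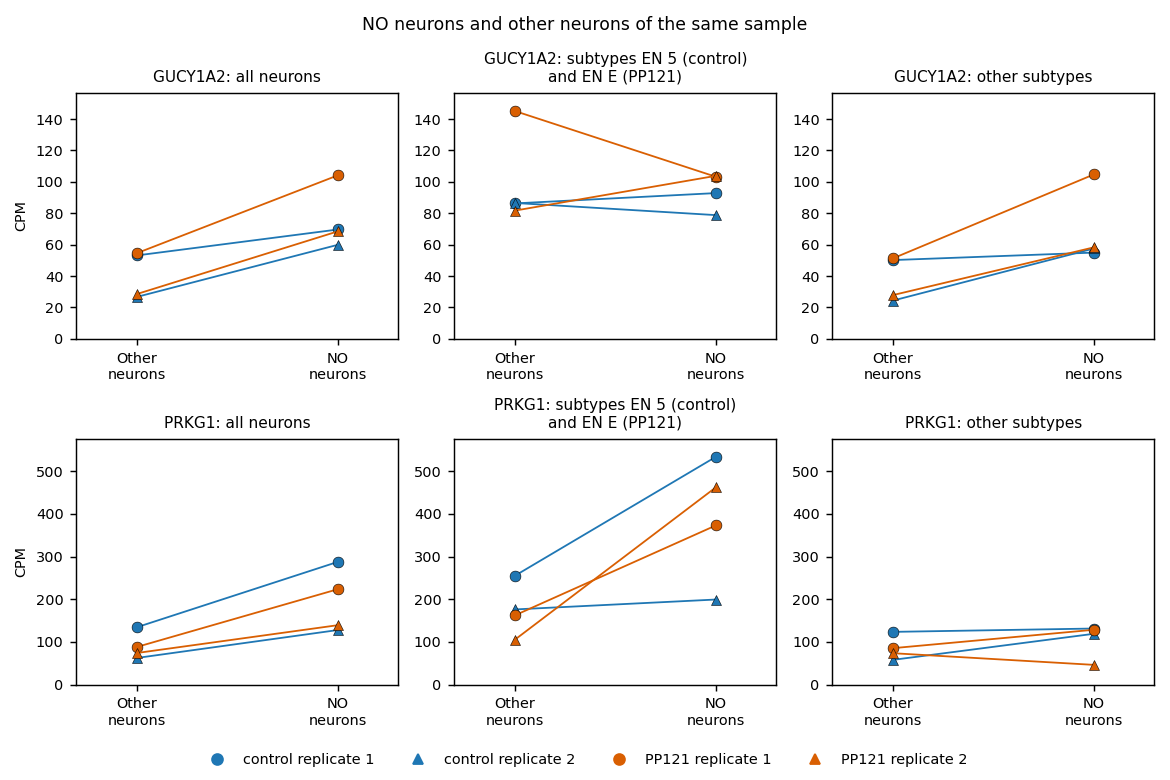
GUCY1A2 (upper row) and PRKG1 (lower row) in CPM (y axis) in other neurons and NO neurons, with 1 line per sample, for all neurons, for subtypes EN 5 (control) and EN E (PP121), and for the remaining subtypes. All 4 lines slope up in both left panels, and of the middle and right panels all 4 slope up only for PRKG1 inside EN 5 and EN E and for GUCY1A2 outside them.

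PP121 was compared with control to ask whether the treatment altered the genes of the pathway. With 2 samples against 2 and no block, no gene passed in any of the sets tested and so no member did. Beside these counts of 0 by edgeR, an unadjusted p under 0.05 was reached by 1113 genes in all annotated nuclei, 2549 in enteric neurons, 962 in progenitors and 2131 in NO neurons, and DESeq2 called 49, 87, 40 and 128. The smallest p that an exact permutation test of 2 against 2 allows is 0.333. Samples with the same replicate number shared their deposited day and deviated together, so the fits were repeated with the replicate number as a block. Each gene then has 1 degree of freedom left, so its p-value leans on the spread that edgeR estimates over all genes. With this replicate block 213 genes passed in all annotated nuclei, 349 in progenitors, 3152 in neurons and 1594 in their NO neurons. With low counts filtered and every sample kept, the calls named below hold only with the block. Without the block, 1 member passed in progenitors when low counts were not filtered. PDE1A in neurons gave 1.00 without the block when PP121 replicate 1 was left out. In that fit the lone PP121 sample is assumed to vary like the controls.

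PDE1A rose with PP121 in progenitors with the replicate block (0.63, SE 0.15, edgeR adjusted p = 0.0215). Within replicates 1 and 2 its ratio of PP121 to control was 1.44 and 1.35 in progenitor 1, and 1.75 and 1.55 in progenitor 2. In mesenchymal nuclei the ratios were 0.96 and 0.98, and in epithelial nuclei 1.53 and 0.71. In enteric neurons as deposited PDE1A also passed with the block (0.70, SE 0.10, edgeR adjusted p = 1.16e-05), at 89.1, 110, 130 and 189 CPM, with ratios of 1.46 and 1.72. Without the 16, 16, 143 and 61 Non-Neuronal nuclei the levels were 88.7, 104, 91.0 and 151, the ratios 1.03 and 1.44, and the call was lost (0.33, SE 0.11, edgeR adjusted p = 0.0814). In the NO neurons, which hold none of them, it passed with the block (0.52, SE 0.16, edgeR adjusted p = 0.0152), with ratios of 1.5 and 1.12, and in the other neurons the ratios were 0.93 and 1.49. By transmitter identity the ratios were 1.03 and 0.91 in cholinergic, 1.01 and 0.92 in GABAergic and 0.70 and 0.91 in serotonergic neurons, and 0.99 and 1.20 in catecholaminergic and 1.04 and 1.19 in glutamatergic ones. In all annotated nuclei it was the 1 member of 9 that passed (0.72, SE 0.11, edgeR adjusted p = 0.0336), beside 0.883% of all genes. Without the block its edgeR adjusted p was 0.931 in all annotated nuclei, 0.377 in neurons, 0.376 in NO neurons and 1.00 in progenitors. By DESeq2 with the block the call was kept in neurons as deposited and in all annotated nuclei and lost in progenitors (adjusted p = 0.0792) and NO neurons (adjusted p = 0.513).

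In enteric neurons as deposited 2 of 9 members passed with the block, beside 14.8% of all genes, and without the Non-Neuronal nuclei 0 of 9, beside 11% of all genes (3 at an unadjusted p under 0.05, namely PDE1A, GUCY1B1 and PRKG2, with edgeR). GUCY1B1 was lower in the PP121 samples (-0.48, SE 0.15, edgeR adjusted p = 0.0256), with ratios of 0.76 and 0.62 in replicates 1 and 2 and all 4 PP121 and control values apart (18.8 and 12.9 against 24.9 and 20.7). Without the Non-Neuronal nuclei the difference was as large (-0.48, SE 0.15, 19.0 and 12.8 against 24.9 and 20.9), with an edgeR adjusted p of 0.0521. The call was also lost with DESeq2 and the block (adjusted p = 0.349) and without the block (edgeR adjusted p = 0.419). In NO neurons 2 of 9 passed with the block (10.5% of all genes). There GUCY1A2 rose by 0.55 (SE 0.17, edgeR adjusted p = 0.0198), from 69.7 and 59.9 to 104 and 68.5, a rise of 1.5 and of 1.14 times within replicates (no block, edgeR adjusted p = 0.293; block with DESeq2, adjusted p = 0.560).

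In progenitors 3 of 9 members passed with the block, beside 1.72% of all genes. PRKG1 rose by 0.78 (SE 0.17, edgeR adjusted p = 0.00854; 0.758 without the block), with ratios of 1.61 and 1.85. PDE3A fell (-0.74, SE 0.17, edgeR adjusted p = 0.0102; 1.00 without the block), with a ratio of 0.60 in both replicates. PDE1A, above, was the third. All 3 passed again, beside 3.09% of all genes, when nuclei were reassigned to joint clusters of all 4 samples (0.90, -0.65 and 0.70, edgeR adjusted p = 0.000213, 0.0122 and 0.00222, with the block).

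The 2 progenitor classes were also fitted alone, split after the data were seen, and the difference between them was not tested. In progenitor 2, 6 of 9 members passed with the block, beside 6.71% of 18885 genes. PRKG1 rose from 142 and 194 to 292 and 318 CPM (0.90, SE 0.12, edgeR adjusted p = 2.86e-08) and PDE1A from 761 and 1025 to 1334 and 1589 (0.75, SE 0.10, edgeR adjusted p = 1.67e-07), with PP121 and control values apart for both genes. GUCY1A1 (0.78, SE 0.23, edgeR adjusted p = 0.0235) and GUCY1A2 (0.62, SE 0.16, edgeR adjusted p = 0.00964) also rose. PDE3A fell (-0.59, SE 0.12, edgeR adjusted p = 0.000283) and so did PDE9A (-0.40, SE 0.13, edgeR adjusted p = 0.0416). In progenitor 1, 1 of the 8 members tested passed, beside 3.69% of 16083 genes, and it was PDE3A, which fell from 199 and 96.3 to 93.6 and 52.5 (-1.01, SE 0.18, edgeR adjusted p = 4.33e-06). PRKG1, which did not pass there, had ratios of 1.23 and 1.62. Without the block no member passed in either class, the lowest edgeR adjusted p being 0.290 for PRKG1 in progenitor 2.

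**Figure D4:**
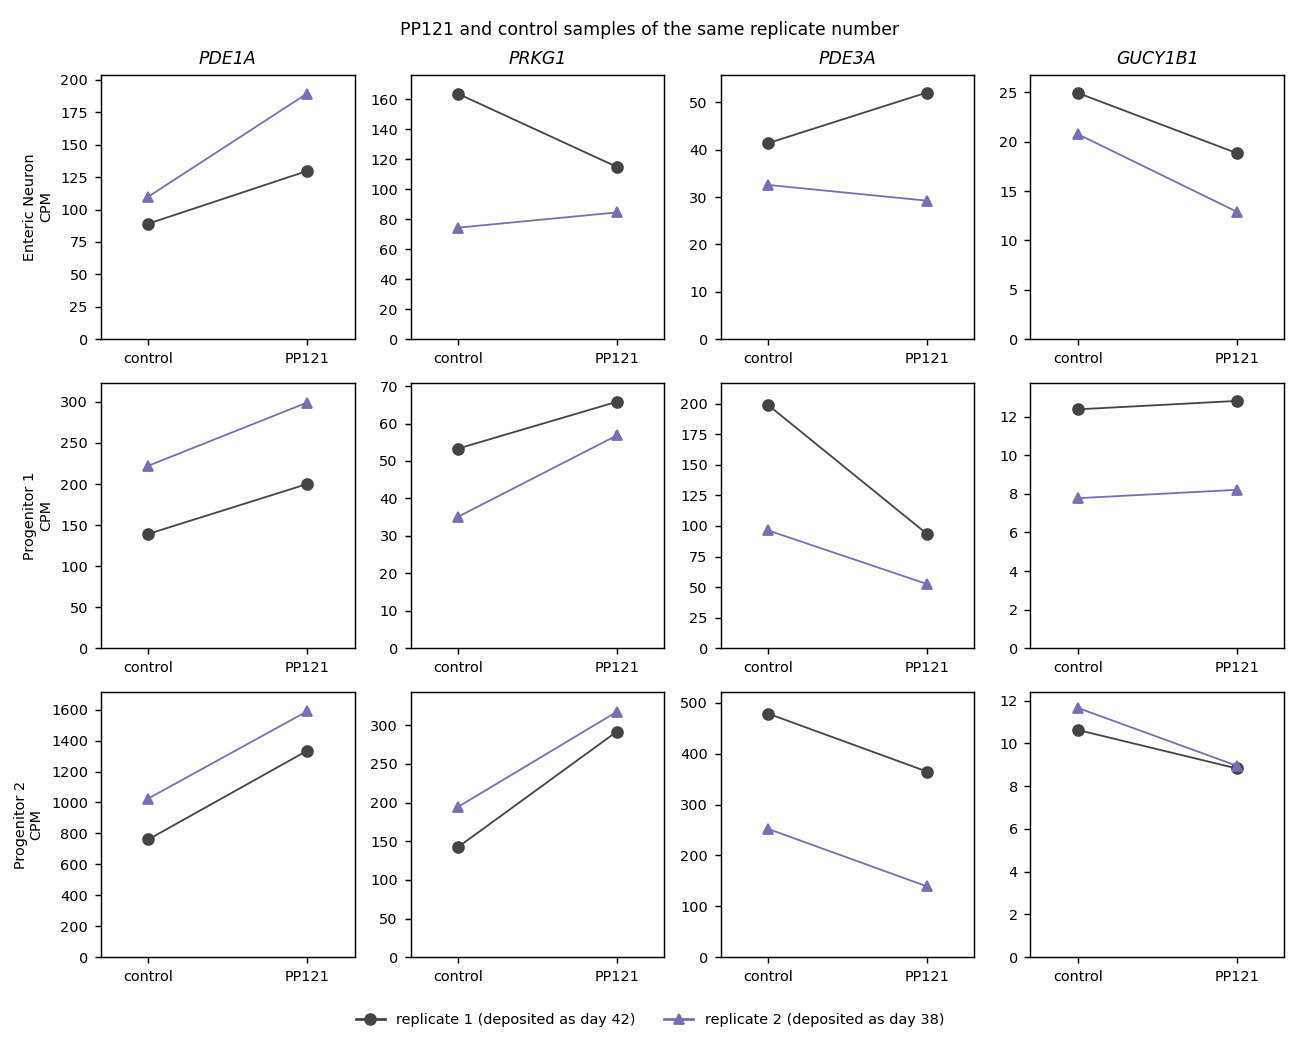
Levels of 4 genes (columns) in enteric neurons (Non-Neuronal nuclei included), progenitor 1 and progenitor 2 (rows) in CPM (y axis), with lines joining control and PP121 samples of the same replicate number. Both PDE1A lines slope up in all 3 classes, both PRKG1 lines slope up and both PDE3A lines slope down in the progenitor classes, and in neurons the 2 replicates of PRKG1 and of PDE3A slope opposite ways.

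The progenitor and neuron labels were not drawn at the same place in both treatments. In joint clusters, 345 of 1197 and 98 of 501 progenitor 1 nuclei of the PP121 samples fell among neurons, against 83 of 586 and 58 of 608 of the controls. The progenitor 2 nuclei moved the other way: 398 of 1155 and 177 of 683 of the controls fell among neurons or progenitor 1, against 203 of 1107 and 70 of 855 of the PP121 samples. The progenitor 2 and progenitor 1 results above are on the deposited classes, and the part of this boundary in them was not tested. With those clusters and the block, 2 of 9 members passed in neurons, beside 6.79% of all genes. PDE1A gave 0.42 (edgeR adjusted p = 0.0069), GUCY1B1 lost its call (-0.43, adjusted p = 0.0846) and PDE3A passed (-0.39, adjusted p = 0.0476).

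Whether neurons and progenitors responded differently was tested as an interaction. No gene of 21787 passed with edgeR (2123 at an unadjusted p under 0.05; DESeq2 called 52). PDE3A had the lowest p of the 9, with a PP121 response 0.88 higher in neurons than in progenitors (SE 0.21, edgeR adjusted p = 0.218). Without the Non-Neuronal nuclei PDE3A gave 0.52 (SE 0.23, edgeR adjusted p = 0.551). PRKG1 gave -0.91 (SE 0.38, edgeR adjusted p = 0.480). Its ratios of PP121 to control in neurons, 0.70 and 1.14, lay on both sides of no change. With no filter on low counts the interaction passed for PRKG1 (edgeR adjusted p = 1e-05) and PDE3A (edgeR adjusted p = 8.23e-05).

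Replicate 2 was compared with replicate 1 as the day 38 and day 42 samples. Without a covariate no gene passed in neurons (1574 at an unadjusted p under 0.05; DESeq2 called 59) or progenitors (2248 and 109). With treatment as a covariate 6 of 9 members passed in neurons (9.49% of all genes) and 2 of 9 in progenitors (2.99%). In neurons GUCY1A2 was lower in replicate 2 (-0.80, SE 0.12, edgeR adjusted p = 2.29e-05), at 32.7 and 32.9 CPM against 56.0 and 63.6. PRKG1 was lower as well (-0.73, SE 0.12, edgeR adjusted p = 9.62e-05), at 74.5 and 84.6 against 164 and 115. PDE3A (-0.52, SE 0.13, edgeR adjusted p = 0.00726) and PDE9A (-0.33, SE 0.10, edgeR adjusted p = 0.0299) were lower, and PDE1A (0.49, SE 0.10, edgeR adjusted p = 0.00108) and PRKG2 (0.70, SE 0.23, edgeR adjusted p = 0.0492) higher. In progenitors GUCY1A1 was higher in replicate 2, at 11.9 and 19.4 against 5.58 and 10.5 (1.09, SE 0.24, edgeR adjusted p = 0.0051). PDE3A was lower, at 186 and 112 against 393 and 238 (-0.97, SE 0.17, edgeR adjusted p = 0.000281). For the 2 neuronal and the 2 progenitor genes given with levels, no value of one replicate overlapped the other. In neurons this also held for PDE3A, PDE9A and PDE5A, of which PDE5A did not pass. The share of all genes with values apart was not computed, so this is a description. Without the Non-Neuronal nuclei 4 of 9 passed in neurons, beside 6.84% of all genes. GUCY1A2 (-0.82, adjusted p = 0.000591), PRKG1 (-0.78, adjusted p = 0.00173) and PDE1A (0.54, adjusted p = 0.0101) were called again, GUCY1A1 passed narrowly (0.72, SE 0.21), and PDE3A, PDE9A and PRKG2 gave edgeR adjusted p of 0.0689, 0.0684 and 0.0952.

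Over all annotated nuclei the replicates differed most in GUCY1A1 and PRKG2. GUCY1A1 had 8.03, 35.0, 11.2 and 34.0 CPM and PRKG2 3.31, 10.5, 4.42 and 13.2. Replicate 2 was higher in both treatments for both genes. The mesenchymal class, which held their highest levels, was 408 of 3030 and 422 of 2912 annotated nuclei in replicate 2 but 40 of 4283 and 33 of 4587 in replicate 1. Its part in these totals was not tested.

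The rest of the cGMP pathway was followed with a list of 46 other genes of cyclases, receptors, ligands, synthases, phosphodiesterases, effectors and exporters, of which 45 were in the tables. Between neurons and progenitors 22 of the 35 tested passed, 13 higher and 9 lower, where 49.2% of all genes did. The leading ones were KCNMA1, the large-conductance potassium channel (2.02), the cAMP phosphodiesterase PDE4A (1.68), PDE1C (1.32) and the cyclic nucleotide exporter ABCC4 (-1.29). In mesenchymal nuclei 12 of 32 passed (21% of all genes), 8 of them higher than in progenitors, led by ITPR1, the calcium release channel of the endoplasmic reticulum (4.29), and PDE7B (3.51). In progenitor 2 against progenitor 1, 20 of 33 passed (57.3% of all genes), 14 higher, with the cAMP enzymes PDE4B (2.49) and PDE4D (2.23) up and NPR3, the clearance receptor of natriuretic peptides, down (-2.64). In NO neurons 11 of 33 passed (12.3% of all genes) and 10 were higher, among them PDE1C (1.72), the channel subunit CNGB1 (1.20) and PDE4B (1.11), apart from NOS1 (5.65), which defines the class. All these are log2 fold changes from the fits with the sample block.

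With PP121 and the replicate block, 9 of 35 genes of the list passed in neurons as deposited (6 higher), 2 of 35 in progenitors (both higher) and 7 of 30 in NO neurons (5 higher), beside 14.8%, 1.72% and 10.5% of all genes. PDE4B, which degrades cAMP, was higher in each of these sets (0.77, 0.79 and 0.66). NOS1 itself was higher with PP121 in NO neurons (1.33), which were selected on its imputed value, and the part of that selection was not tested. Without the block 0 genes of the list passed in any of these sets. The list was not counted again in neurons without the Non-Neuronal nuclei.

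The genes whose pattern was most like each member were taken by Pearson's r of log2 levels over 20 sums (5 classes in 4 samples), from 8602 candidates. PRRX1, a transcription factor of mesenchyme, was closest to GUCY1A1 (r = 0.956), SEMA5A was among the closest to PRKG1 (0.960), and LRRFIP1 was closest to GUCY1A2 (0.889). For PDE9A it was the proteoglycan gene NCAN (0.939) and for PDE3A the glutamate transporter gene SLC1A3 (0.928). For PDE1A, STK33 (0.949) and ANOS1 (0.944) followed the transcript AC079385.1 (0.969). Among the members, GUCY1A2 with PRKG1 (0.788) and GUCY1A1 with PRKG1 (0.784) were the most alike pairs, and GUCY1A1 with PDE9A (-0.642) the least. The 20 sums share libraries and depths, so these r values are descriptions.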

How the data were processed

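The authors sequenced nuclei of stage 1 ganglioids with droplet-based 3′ libraries and deposited, per sample, raw UMI counts per gene and nucleus with an annotation that also lists the percentage of mitochondrial and ribosomal counts, which was not tested. The submitters' processing notes name Cell Ranger, Seurat 4.0.4 and GRCh38, whereas the study's methods name kallisto and bustools. Intron counting and strand were not given in the sources used here. Nuclei marked Filtered were dropped. The sample column of the annotation went against the labels for both control samples, so samples were taken from the files' own records. Doublets were not called here.

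Counts were summed per sample and class and tested with edgeR 4.0.16 (TMM, filterByExpr, quasi-likelihood test, 2-sided, Benjamini-Hochberg adjusted p of 0.05) in R 4.3.3 over all genes. Contrasts between classes and the interaction held the sample as a block. PP121 against control was fitted without a block, and with the replicate number as a block as an alternative. Same-numbered samples shared the deposited day, and their deviations from the group means correlated at 0.522 over all annotated nuclei and at 0.201 to 0.412 in the sets tested, so the numbers were taken to pair the samples. P-values measure the spread between these 4 samples only, and edgeR draws the spread of each gene towards that of the other genes. With the replicate block, which leaves a gene little spread of its own, small p-values rest largely on this shared estimate. Shares of nuclei were taken after thinning to 2000 UMIs, leaving out shallower nuclei (0 to 23 per class and sample among the values given), with exact Clopper-Pearson 95% intervals.

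Named genes were the 9 members, up to 4 genes per comparison of the pathway list (largest fold change among those called with at least 10 CPM on average) and the genes most like each member (given for 6 members, and for GUCY1B1 not reported here). The members and lists were chosen with earlier results of these data known. Tested alternatives were DESeq2 1.42.0, other filters on low counts, leaving out each sample, no sample block, joint Leiden clusters (leidenalg 0.10.2, resolution 0.2) of all samples, NO neurons by NOS1 UMIs, every deposited nucleus and thinning to 4000 UMIs. The replicate block in DESeq2, with every deposited nucleus and in each progenitor class alone, the treatment covariate with joint clusters, and the neurons without the nuclei that the deposited subtypes name Non-Neuronal, were chosen after seeing the data. Scripts were tested on simulated data. Promoters came from RefSeq (8 of 9 members matched) and gene positions from GENCODE 29.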

Additional observations from a re-analysis of the deposited data

Results flagged for a closer look

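Within-sample log2 ratios of the 9 genes were screened for a sample far from the other 3 (34 sets of 4 values, of which chance alone marks about 1 in 20) and for treatments or classes in which every sample moved opposite ways. For GUCY1A1 in progenitor 2 against progenitor 1, PP121 replicate 2 had a log2 ratio of 0.0060 where the other 3 samples had 0.29 to 0.30. These ratios rest on low levels, at 4.80, 10.5, 9.40 and 19.4 CPM in progenitor 1, and their counting error was not tested.

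The remaining results are differences in direction that were not tested. GUCY1B1 in NO neurons against other neurons had log2 ratios of -0.11 and -0.19 in the controls and 0.10 and 0.27 in the PP121 samples, a difference of 0.34 between the group means. PRKG2 in the same comparison had 1.51 and 0.71 in the controls and -0.12 and -0.96 in the PP121 samples, a difference of -1.65, from 5 to 35 UMIs in NO neurons. PP121 over control for GUCY1B1 was 0.05 and 0.08 in progenitor 1 and -0.27 and -0.38 in progenitor 2, a difference of 0.39. PP121 over control for PDE9A was 0.02 and 0.56 in NO neurons and -0.23 and -0.07 in other neurons, a difference of 0.44.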

How the results depend on the processing

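Of the 24 member differences called between classes, 203 of 206 refits kept call and direction and 3 lost the call, with the same direction. These were PDE9A in mesenchymal nuclei without control replicate 2, and GUCY1A2 in NO neurons without the sample block and by NOS1 UMIs. PDE9A in NO neurons, not called, turned to 0.23 with the split by NOS1 UMIs. The number of members passing in NO neurons was then 1, and also 1 without the sample block, in place of 2. For PP121 no member passed in the main fits without a block. With the replicate block, which pairs samples by number, 1 passed in all annotated nuclei (1 also with DESeq2 or every deposited nucleus), 2 in neurons (1 with DESeq2, 2 with joint clusters, 0 without the Non-Neuronal nuclei), 3 in progenitors (2 with DESeq2, 3 with joint clusters, 1 in progenitor 1 alone and 6 in progenitor 2 alone) and 2 in NO neurons, and the call of no other member changed. Over all genes the same block moved the calls from 0 to 213, 3152, 349 and 1594. In progenitors 1 member passed without the block when low counts were not filtered. Replicate 2 against 1 went from 0 to 6 members in neurons (4 with joint clusters, 4 without the Non-Neuronal nuclei) and from 0 to 2 in progenitors (2 with joint clusters) once treatment was a covariate. The interaction gave 2 members with no filter, PRKG1 (adjusted p = 1e-05) and PDE3A (adjusted p = 8.23e-05). Leaving out each sample gave 7 to 9 members in neurons against progenitors, 8 to 9 in mesenchymal nuclei, 6 to 7 between progenitor classes, 2 to 3 in NO neurons, 0 to 1 for PP121 in neurons, 0 to 3 for replicates in progenitors, and 0 to 0 in the other comparisons. The cause of these changes was not tested. The level of PRKG2 outside mesenchymal nuclei rests on 0 to 92 UMIs a deposited class and sample.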

Other observations

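Within the progenitors, 6 of the 9 members (PDE1A, PDE3A, PDE5A, PDE9A, PRKG1 and, on few UMIs, PRKG2) were higher in the deposited cell cycle phase G1 than in G2M in every sample. Values are given for 2 of them, picked after those of all 9 were seen. PDE1A was 646, 786, 930 and 1273 CPM in G1 and 465, 441, 728 and 1054 in G2M. PDE3A was 427, 236, 297 and 126 in G1 against 336, 117, 195 and 78.2 in G2M. Each phase pools the 2 progenitor classes, and PDE1A, PDE3A, PDE5A, PDE9A and PRKG1 were also the higher in progenitor 2 of these classes. The mix of the classes in each phase was not tested. The share of all genes with the same direction in every sample was not computed, so the count of members is a description. The phase was not tested.

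Nuclei marked Filtered enter only the alternative with every deposited nucleus. Their PDE1A level was 225 and 340 CPM in the controls and 482 and 768 in the PP121 samples, so that the PP121 sample was the higher one in both replicates.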
